A study of Mus musculus with 10 samples.

Results

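Cytosolic ribosomal proteins are the proteins of the ribosomes that translate nuclear-encoded mRNA. Their genes were taken by symbol: Rpl or Rps followed by a number and, where present, a letter a, x or l, together with Rplp0, Rplp1, Rplp2 and Rpsa, and without pseudogene symbols that end in -ps. Of 55414 genes in the files, 89 matched, and 82 of them had a mean of at least 1 CPM (counts of a gene for each 1000000 counts of its library) over the 10 libraries and are described here. These are 49 genes of the large and 33 of the small subunit, and all 82 passed the filter on low counts. The remaining 7, Rpl3l, Rpl6l, Rpl10l, Rpl32l, Rps3a2, Rps3a3 and Rps12l1, lay below that level.

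RNA of interscapular brown adipose tissue (iBAT) was sequenced after poly(A) selection from 5 Cre- mice, RetSat flox/flox Ucp1-Cre (-), and 5 Cre+ mice, RetSat flox/flox Ucp1-Cre (+). All were C57BL/6J, received normal chow and were 12 to 14 weeks old. Both groups carry floxed alleles of RetSat, which encodes the oxidoreductase retinol saturase. Cre is driven by the Ucp1 promoter, so other cells of iBAT keep RetSat, and no group carried Cre without floxed alleles. The comparison asks whether mRNA of the translation machinery differed in iBAT once brown adipocytes had lost RetSat.

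A ribosome holds 1 copy of nearly every ribosomal protein, bound to rRNA, and the stalk proteins Rplp1 and Rplp2 are the main exception. Their mRNAs belong to the TOP class, which starts with a C followed by further pyrimidines at the cap and whose translation follows mTORC1 through the repressor Larp1. Most of these genes have many processed pseudogenes, intronless copies of their mRNA elsewhere in the genome. Brown fat is known to grow in the cold, with a rise in its RNA and protein content.

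Cre- libraries held 91903095 to 132499312 counts and Cre+ libraries 96991071 to 110293494. RetSat, the deleted gene, had 185 ± 42.3 CPM (mean ± SD, here and below) in the 5 Cre- and 23.9 ± 8.63 CPM in the 5 Cre+ mice, and every Cre+ mouse lay below every Cre- mouse. All 14 brown adipocyte markers were detected in every library, with Ucp1 at 3577 CPM or more. Skeletal muscle markers summed to 638 CPM in Cre- replicate 2 and 361 CPM in Cre+ replicate 4, against 47.0 to 74.8 CPM in the other libraries. The identifiers of Cre+ replicates 1, 4 and 5 carry an added letter whose meaning is not stated. It occurs in no Cre- library, so in the comparison of all 10 libraries the letter and the genotype cannot be told apart in those 3 mice. CPM below are normalized by TMM, edgeR's scaling between libraries, and log2 fold changes (log2FC) are Cre+ over Cre-.

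A pyrimidine stretch near the start of transcription is known from these genes, and it is shown for 6 of the 8 members with the smallest p below, for Rpl34, which has one of the longest stretches, and for Rplp0, whose stretch is short. The sequences are 30-base windows that hold the stretch, on the strand of the gene (build GRCm38.p6). Capitals mark the longest run of pyrimidines that starts with C within 50 bases of the RefSeq start. In Rps23, Rpl41 and Rpl39 the marked run reaches the end of that span and may go on past it. Counted from the start base as 1, the run began at -42 in Rpl27, at -17 in Rpl34 and at 14 to 41 in the other 6 genes, so of these windows that of Rpl34 contains the annotated start and the others lie to one side of it.
Rpl27, chr11:101442195-101442224, plus strand: catcctcgCTCCTCCCTCCacacgccggaa
Rpl11, chr4:136053357-136053386, minus strand: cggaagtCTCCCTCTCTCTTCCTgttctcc
Rps21, chr2:180257399-180257428, plus strand: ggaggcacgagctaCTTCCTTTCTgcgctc
Rps23, chr13:90923142-90923171, plus strand: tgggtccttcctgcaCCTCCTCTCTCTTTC
Rpl41, chr10:128549119-128549148, minus strand: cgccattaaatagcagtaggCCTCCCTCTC
Rpl39, chrX:37085173-37085202, minus strand: gttcttccggtcccggCCTTTCTCTTCTCC
Rpl34, chr3:130730330-130730359, minus strand: acccgCCCCTTCCTTTTCCTCTTCCgggga
Rplp0, chr5:115559468-115559497, plus strand: gaccgcctggttCTCCTataaaaggcacac

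A start region was found in RefSeq for 61 of the 82 genes. A run of 8 or more pyrimidines that starts with C was present in 51 of them (83.6%), against 32.0% of 27025 start regions of the same length and 32.4% of those of the 11863 genes tested that have one. The median longest run was 10 bases in ribosomal protein genes and 6 bases over all genes. It was 11 bases in Rpl27, 16 in Rpl11 and 20 in Rpl34, while Rplp0 had 5. In 26 of the 61 (42.6%) the 300-base region from 250 bases before to 50 after the start held CCGGAAG on either strand, the core that ETS factors bind, against 9.93% of all regions and 18.3% of those of genes tested. The motif AAGATGGC on either strand, bound by YY1, was found in 6 of 61 (9.84%), in 3.19% of all regions and in 4.78% of those of genes tested. On the opposite strand both motifs contain pyrimidines and can overlap the end of a run, so the 3 features were not counted from separate bases.

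Together the 82 genes took about 1 in 100 counts of each iBAT library. Their percentage of all counts was 1.02, 0.931, 0.931, 0.931 and 0.855 in Cre- replicates 1 to 5. It was 1.05, 0.920, 0.961, 1.04 and 1.12 in Cre+ replicates 1 to 5. The highest Cre- library, replicate 1, lay above 2 of the Cre+ libraries, and the groups overlapped. The means were 0.934 ± 0.0599% (SD, n = 5) in Cre- and 1.02 ± 0.0797% (SD, n = 5) in Cre+ mice, a difference of 0.0840 percentage points. The 95% Wilson intervals of the single shares were at most 0.00202 percentage points to either side, which covers counting error only, so depth did not limit these values.

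Within Cre+ mice, the 3 libraries with the added letter held 1.04 to 1.12% and the other 2 held 0.920 and 0.961%, inside the range of Cre- mice. Without the 3 libraries the difference between genotypes was 0.00653 percentage points. The 13 mtDNA-encoded protein genes take part in the same total. Their share was 15.1 to 15.8% in the 3 libraries, 16.8 and 17.1% in the other Cre+ libraries and 17.0 to 20.5% in Cre- libraries. It rests on the mtDNA genes with high counts. In Cre- mice mt-Co1 and mt-Cytb had means of 66101 and 47447 CPM, but mt-Nd3 had 29.1 CPM. There mt-Co2, mt-Co3, mt-Atp6, mt-Atp8 and mt-Nd4l had 0.523 to 7.14 CPM. Other mtDNA genes were not part of this share, but the nuclear total that follows leaves them out too. With counts of nuclear genes alone as the total, ribosomal protein genes took 1.202 ± 0.0973% (SD, n = 5) in Cre- and 1.247 ± 0.0895% (SD, n = 5) in Cre+ mice, a difference of 0.0453 percentage points. The part of the mtDNA share and of the letter in the difference was not tested.

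**Figure D1:**
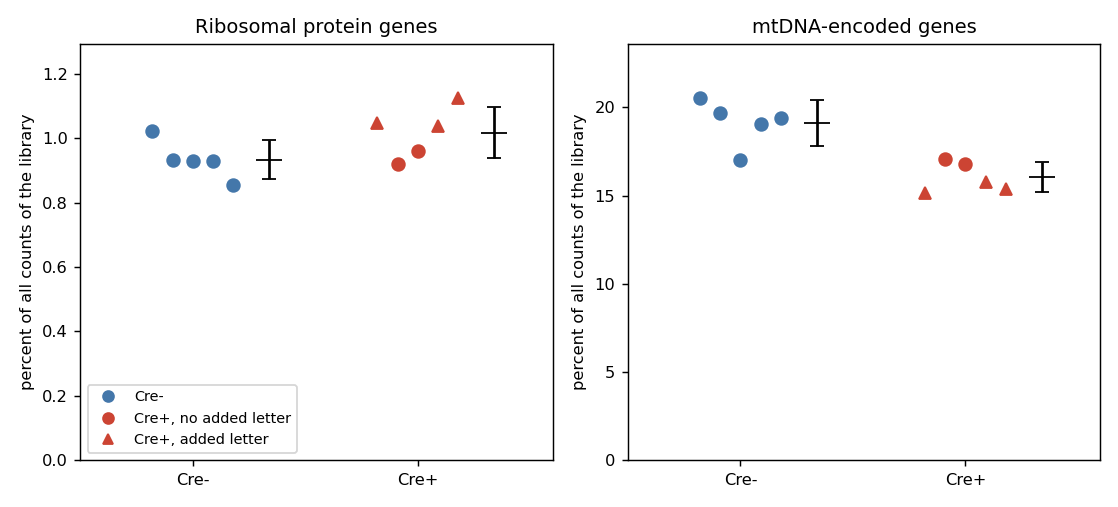
Percent of all counts of each library that fell on the 82 ribosomal protein genes (left) and on the 13 mtDNA-encoded protein genes (right), with Cre- and Cre+ mice on the x axis. Points are libraries, triangles the 3 Cre+ libraries with an added letter, and black bars give mean ± SD over the 5 mice of a genotype. The triangles lie at 1.04 to 1.12% on the left and at 15.1 to 15.8% on the right, and the other Cre+ libraries lie among the Cre- libraries on the left. The right panel rests on the mtDNA genes with high counts.

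No ribosomal protein gene passed an adjusted p under 0.05 between genotypes in edgeR's quasi-likelihood test, where 29 of 17690 genes tested passed (0.164%). DESeq2 called 1 of the 82, Rpl27, where it called 2.28% of all genes, and limma voom called 0 where it called 0.837%. In simulated counts with 200 of 17690 genes changed, DESeq2 made 31 false calls, edgeR 4 and limma voom 3. DESeq2 also recovered more of the changes of 0.5 on the log2 scale, 44% against 27% for edgeR and 22% for limma voom. Whether the call of Rpl27 is a false one cannot be told from this. Without adjustment, 7 members were higher and 1 was lower at a p under 0.05 by edgeR, where 6.4% of all genes were higher and 5.95% lower. Groups did not overlap for Rpl27, higher in Cre+ mice, and for Rpl7, lower in Cre+ mice, which is 2 of 82 where 2.67% of all genes had such groups, 1.2% higher and 1.47% lower. For 79 of the 82 genes the 95% interval of the log2 fold change lay between -0.5 and 0.5.

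The direction of these small differences was uneven. Log2 fold changes were above 0 for 62 of 82 genes (75.6%), where 50.3% of all genes tested were above 0, and their median was 0.06 where that of all genes was 0.00. Of 49 large subunit genes 39 were above 0, with a median of 0.07, and of 33 small subunit genes 23, with a median of 0.04. Scaled to total counts without TMM, the median of all genes moved to 0.07, that of the members to 0.14, and 75 of 82 were above 0.

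Single libraries weighed on this shift. Without Cre- replicate 5 or Cre+ replicate 5 the median of the members was 0.03, and without Cre- replicate 1 it was 0.10. Without the 3 Cre+ libraries with an added letter, which leaves 2 Cre+ mice, it was -0.05 and 20 of 82 genes were above 0, so the direction turned. Leaving out the pair with muscle transcripts, Cre- replicate 2 and Cre+ replicate 4, it was 0.06 and 60 of 82 were above 0.

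**Figure D2:**
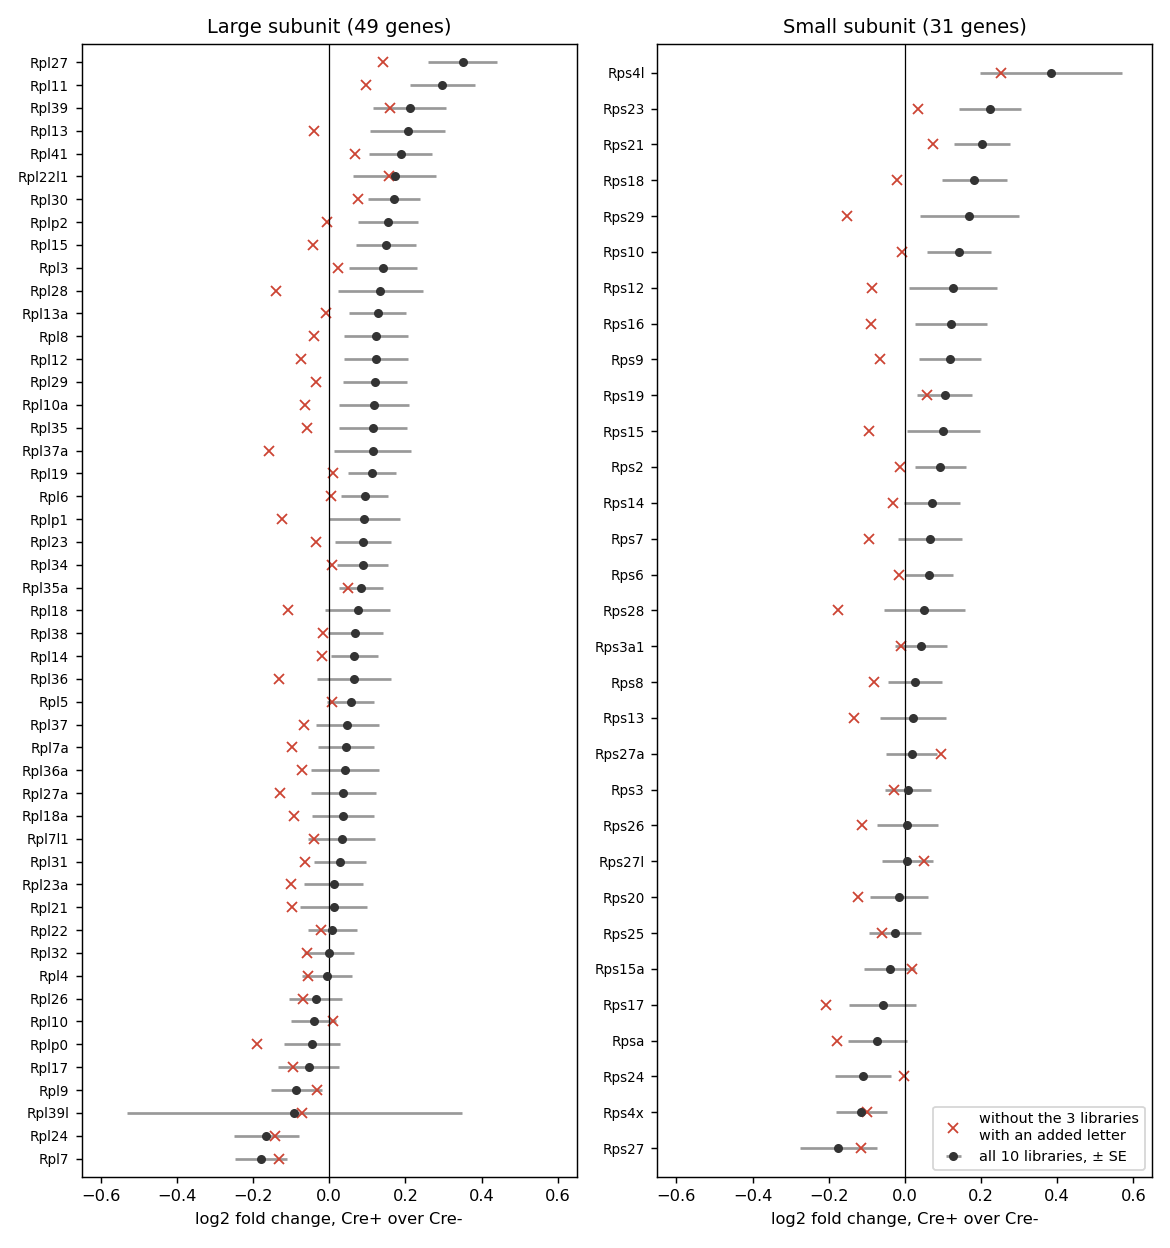
Log2 fold change of Cre+ over Cre- mice (x axis) for 49 large and 31 small subunit genes (y axis). Black points with grey bars are the edgeR estimate and its SE from all 10 libraries, and red crosses the estimate without the 3 Cre+ libraries with an added letter. Most black points lie right of 0 and most crosses left of their point, and the median over all 82 genes moves from 0.06 to -0.05.

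Compared with the mean of Cre- mice, the median member stood at 0.13, 0.09 and 0.20 on the log2 scale in Cre+ replicates 1, 4 and 5 and at -0.05 and -0.03 in Cre+ replicates 2 and 3. In Cre- replicates 1 to 5 it stood at 0.12, 0.02, -0.06, 0.03 and -0.12, while the median of all genes tested stayed between -0.01 and 0.01 in every library. Cre- replicate 1 was thus about as high as Cre+ replicate 1, with 72 and 65 of 82 genes above the Cre- mean, and Cre- replicate 5 had 1. For 60 of 82 genes (73.2%) all 3 libraries with the letter lay above both other Cre+ libraries, as they did for 12.0% of all genes tested. They lay below both for 4 of 82 genes, and for 1996 of the 17690 genes tested.

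The single values of the members that lead the comparison follow. Rpl27 (ENSMUSG00000063316.14, chr11:101333124-101336355 of GRCm39), a large subunit protein, had 24.8, 25.1, 24.96, 24.4 and 21.8 CPM in Cre- replicates 1 to 5 and 33.8, 26.3, 27.3, 31.3 and 35.7 CPM in Cre+ replicates 1 to 5. Every Cre+ mouse lay above every Cre- mouse, the 3 libraries with the added letter by the most. Its log2FC was 0.35 (SE 0.09, 95% interval 0.16 to 0.55, adjusted p = 0.142 by edgeR), and DESeq2 gave an adjusted p of 0.0394. Without the 3 libraries the log2FC was 0.14.

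Rpl11 (chr4:135755576-135780739), which with Rpl5 and 5S rRNA forms a particle that also binds the p53 regulator Mdm2, had 102, 112, 105, 100.1 and 95.1 CPM in Cre- against 135, 108, 113, 130.5 and 146 CPM in Cre+ mice. The groups overlapped in 1 mouse of each genotype, Cre- replicate 2 and Cre+ replicate 2. The log2FC was 0.30 (SE 0.09, adjusted p = 0.189 by edgeR), and 0.10 without the libraries with the letter. Its partner Rpl5 had 0.06 (SE 0.06, adjusted p = 0.754 by edgeR).

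Rps23, a small subunit protein next to the decoding centre, had 64.9, 63.8, 64.2, 59.6 and 58.3 CPM in Cre- against 75.2, 61.9, 65.7, 76.1 and 83.7 CPM in Cre+ mice. Its log2FC was 0.22 (SE 0.08, adjusted p = 0.292 by edgeR). Rps21, also of the small subunit, had 105.6, 114, 105.9, 104 and 100.2 CPM in Cre- against 129, 109, 115, 117 and 139 CPM in Cre+ mice, with a log2FC of 0.20 (SE 0.07, adjusted p = 0.290 by edgeR). In both genes the highest Cre+ value was that of replicate 5, and the lowest, that of replicate 2, lay within the Cre- range.

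Rpl30, Rpl41, Rpl39, Rpl13 and Rps18 made up the rest of the 9 higher among the 10 members with the smallest p. Rpl30 had 46.5, 51.2, 47.4, 42.5 and 44.4 CPM in Cre- against 53.3, 48.3, 49.9, 53.4 and 56.3 CPM in Cre+ mice (log2FC 0.17, SE 0.07). Rpl41, the shortest of the members' coding sequences shown here, had 237, 245, 200.2, 240.4 and 209 CPM in Cre- against 277, 229.9, 246, 248 and 288 CPM in Cre+ mice (log2FC 0.19, SE 0.08). The groups overlapped in each gene. The log2FC of Rpl13 was 0.21 (SE 0.10) and that of Rps18 0.18 (SE 0.09), and they were -0.04 and -0.02 without the libraries with the letter. Adjusted p-values of these 5 genes were 0.336 to 0.421 from edgeR.

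Rpl7, a large subunit protein, was the member with the smallest p among those lower in Cre+ mice. It had 270.2, 235, 225, 241 and 223 CPM in Cre- against 199, 215, 222, 201 and 218 CPM in Cre+ mice. Every Cre+ mouse lay below every Cre- mouse, though Cre+ replicate 3 and Cre- replicate 5 differed by about 1 CPM, and 2 of the 3 libraries with the letter, Cre+ replicates 1 and 4, were the lowest. The log2FC was -0.18 (SE 0.07, adjusted p = 0.314 by edgeR), and -0.13 without the 3 libraries. Other members with negative values were Rps27 (-0.18, SE 0.10), Rpl24 (-0.16, SE 0.09) and Rps4x (-0.11, SE 0.07), with adjusted p-values of 0.456 to 0.515 from edgeR.

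**Figure D3:**
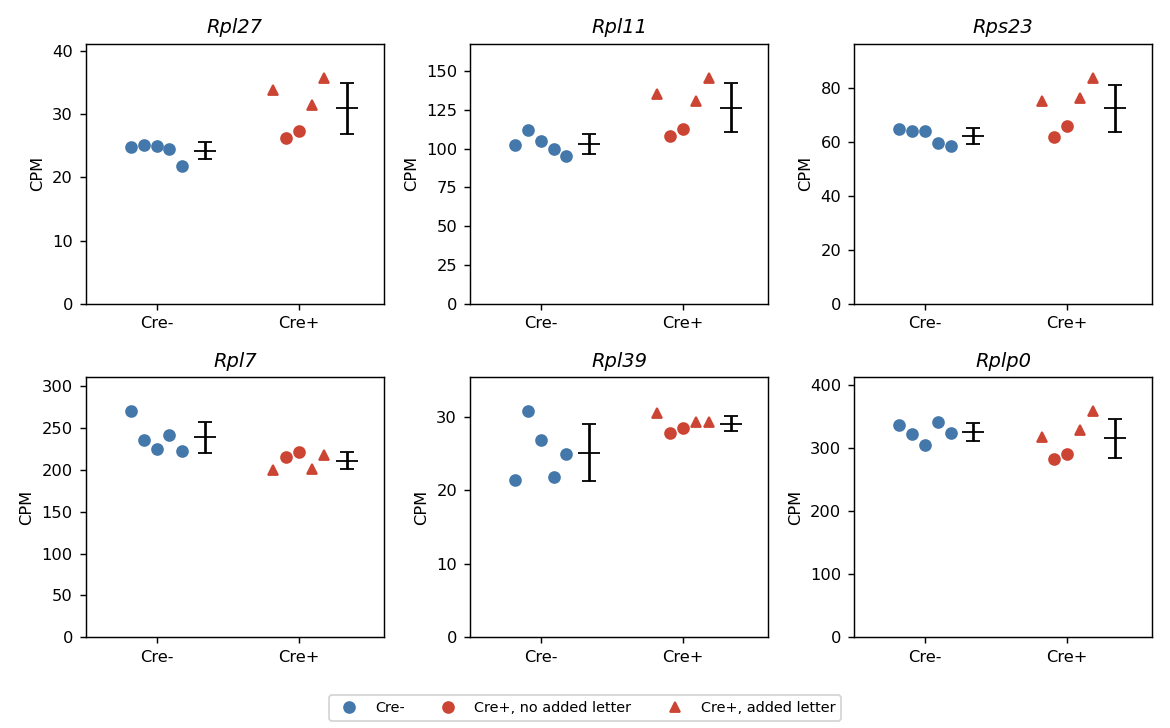
CPM of 6 ribosomal protein genes (y axis, from 0) in Cre- and Cre+ mice (x axis). Points are mice, triangles the Cre+ libraries with an added letter, and black bars give mean ± SD over the 5 mice of a genotype. Rpl27 is the gene with all Cre+ mice above the Cre- mice, at 26.3 to 35.7 against 21.8 to 25.1 CPM, and Rpl7 the gene with all of them below.

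The stalk, which recruits the elongation factors, is built on Rplp0, one of the reference genes to which qPCR values were normalized in the study. Rplp0 had 336, 322, 304, 341 and 324 CPM in Cre- against 317, 283, 290.3, 328 and 358 CPM in Cre+ mice. Its log2FC was -0.05 (SE 0.07, 95% interval -0.20 to 0.11, adjusted p = 0.835 by edgeR), and 0.03 when scaled to total counts. The sign thus depended on the scaling, and the interval allows a difference of -0.20 on the log2 scale. Without the libraries with the letter the log2FC was -0.19, with the smallest adjusted p of any member in that fit (0.475 by edgeR).

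Its partners Rplp1 and Rplp2 had a log2FC above 0, with the groups overlapping and Cre+ replicate 5 the highest. Rplp2 had 274, 280.3, 296, 283 and 255 CPM in Cre- against 326, 281, 273, 309 and 356 CPM in Cre+ mice (log2FC 0.15, SE 0.08, adjusted p = 0.451 by edgeR). Rplp1 had 271, 258, 239, 269 and 228 CPM in Cre- against 289.7, 224, 242, 281 and 312 CPM in Cre+ mice (log2FC 0.09, SE 0.09, adjusted p = 0.725 by edgeR). Rps6, the substrate of S6 kinase, had 52.5 ± 3.06 CPM in Cre- against 54.8 ± 3.07 CPM in Cre+ mice (n = 5 each). Rpsa, the small subunit protein also known as the laminin receptor precursor, had 279.5 ± 19.4 and 266 ± 24.9 CPM (SD, n = 5 each). Log2 fold changes were 0.06 (SE 0.06) for Rps6 and -0.07 (SE 0.08) for Rpsa.

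The members moved together from library to library. After the mean of each genotype was taken off the log2 CPM, the correlation of 2 members over the 10 libraries had a median of 0.64 over 3321 pairs and was above 0 in 89.9% of them. Its mean was 0.55, against 0.0005 over all pairs of the 17690 genes tested. These pairs share libraries, scaling and, in part, sequence, and the values are a description. The difference between Cre+ libraries with and without the added letter, a median of 0.17 over members, was not taken off. It therefore enters these correlations, and its part in them was not tested. Within a genotype the members had a median SD of 0.12 on the log2 scale, against 0.24 over all genes tested. The comparison was not matched for level, and Rpl39l, the lowest member, had an SD of 0.76.

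For 62 of 82 genes the mean correlation with the other members was at least 0.5, and Rps20 and Rps15 had the highest (0.72 each). The lowest were those of Rpl39 (-0.08), Rps4l (0.03), Rps24 (0.05), Rps27l (0.06) and Rpl39l (0.16). Rpl39, a small protein of the exit tunnel, had 21.4, 30.8, 26.8, 21.8 and 24.9 CPM in Cre- against 30.6, 27.8, 28.5, 29.3 and 29.3 CPM in Cre+ mice. Its Cre+ values lay close together while Cre- values ranged from 21.4 to 30.8 CPM, and its log2FC of 0.21 (SE 0.09, adjusted p = 0.392 by edgeR) was 0.16 without the libraries with the letter. Rps24 had 159.8 ± 11.7 CPM in Cre- against 148 ± 11.4 CPM in Cre+ mice (n = 5 each).

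**Figure D4:**
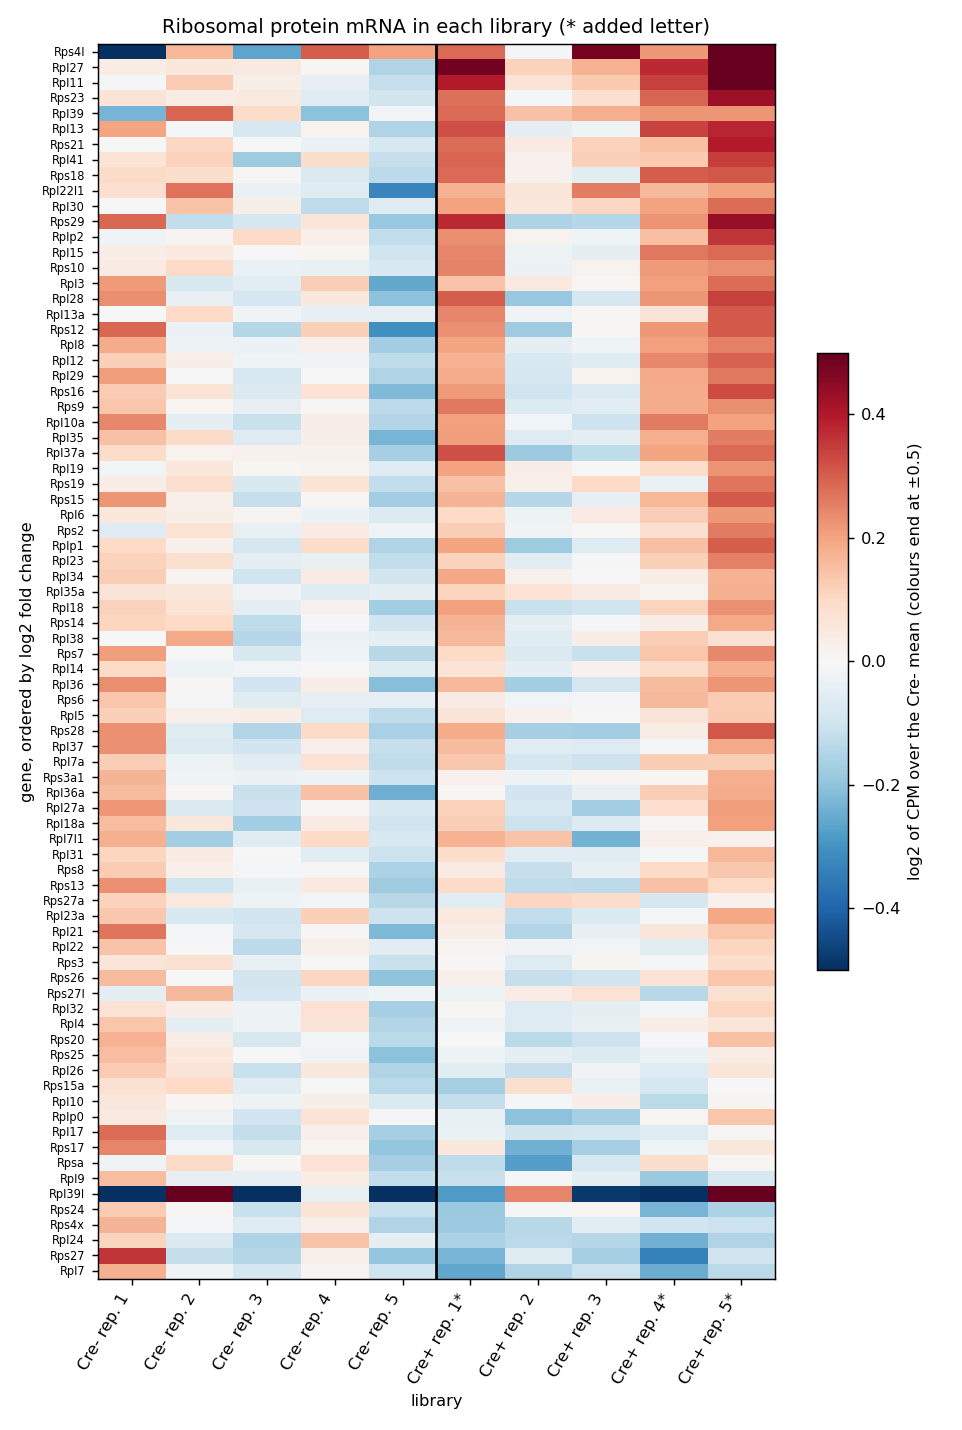
Log2 of the CPM over the mean of Cre- mice (colour, ends at ±0.5) for 80 of the 82 genes (rows, ordered by log2 fold change) in the 10 libraries (columns, an asterisk marks an added letter). Cre- replicate 1 and Cre+ replicates 1, 4 and 5 are red over most rows, with 58 to 75 of 82 genes above the Cre- mean in the 4 libraries. Cre- replicates 2 and 4 had 54 and 56 of 82 genes above that mean, and Cre- replicate 5 is blue.

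Paralogues of ribosomal proteins replace the common form in some tissues, such as Rpl3l in striated muscle and Rpl10l and Rpl39l in male germ cells. Rpl3 had 129 ± 16.3 CPM in Cre- against 142 ± 10.9 CPM in Cre+ mice (n = 5 each). Rpl3l, at a mean of 0.66 CPM, had 194 counts in Cre- replicate 2 and 132 in Cre+ replicate 4, which also hold muscle transcripts, and 29 to 53 counts in the others. Rpl10l had no count in any library, where Rpl10 had 109.6 ± 3.81 CPM in Cre- against 107 ± 5.71 CPM in Cre+ mice (n = 5 each). At these depths 0 counts in a library allow up to 3 counts, and not all reads of a gene could be counted, as given below.

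Rpl39l is printed with Rpl39, and Rps27l with Rps27, to show how far the reads of a pair can be told apart. These are coding sequences of GENCODE M21 (GRCm38), and capitals mark the bases that differ within a pair. The last is that of Rpl41, which has 78 bases.
Rpl39: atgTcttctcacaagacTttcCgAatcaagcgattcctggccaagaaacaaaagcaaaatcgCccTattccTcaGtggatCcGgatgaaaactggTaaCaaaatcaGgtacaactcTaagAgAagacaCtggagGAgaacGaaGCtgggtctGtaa
Rpl39l: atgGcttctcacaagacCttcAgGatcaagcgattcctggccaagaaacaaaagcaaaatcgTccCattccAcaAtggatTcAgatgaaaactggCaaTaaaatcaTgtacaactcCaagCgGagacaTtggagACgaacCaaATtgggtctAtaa
Rps27: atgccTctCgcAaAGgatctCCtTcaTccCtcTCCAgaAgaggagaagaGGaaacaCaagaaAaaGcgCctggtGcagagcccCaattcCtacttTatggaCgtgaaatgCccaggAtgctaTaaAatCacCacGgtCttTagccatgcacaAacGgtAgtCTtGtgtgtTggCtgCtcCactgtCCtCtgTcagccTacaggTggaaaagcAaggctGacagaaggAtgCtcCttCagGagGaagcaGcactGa
Rps27l: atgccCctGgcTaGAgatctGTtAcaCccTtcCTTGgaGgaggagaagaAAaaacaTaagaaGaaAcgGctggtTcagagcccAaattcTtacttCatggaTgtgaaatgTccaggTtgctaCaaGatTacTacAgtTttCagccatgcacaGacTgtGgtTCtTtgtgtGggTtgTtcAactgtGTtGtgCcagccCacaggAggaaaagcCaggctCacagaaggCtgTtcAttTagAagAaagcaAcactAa
Rpl41: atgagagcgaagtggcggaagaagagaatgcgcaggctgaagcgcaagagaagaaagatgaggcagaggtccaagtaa

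Rpl39 and Rpl39l differ at 23 of 156 bases (85.3% identity), with a longest identical stretch of 38 bases, shorter than the 51 bases read from each end of a fragment. Rps27 and Rps27l differ at 61 of 255 bases (76.1% identity) and share no more than 11 bases in a row. Rpl39l had 0.598, 2.48, 0.485, 1.05 and 0.759 CPM in Cre- against 0.882, 1.27, 0.768, 0.538 and 1.54 CPM in Cre+ mice. It was the lowest member, with the groups overlapping over the whole range of Cre+ mice. Rps27l, a target of p53, had 85.5 ± 5.92 and 85.8 ± 5.22 CPM (SD, n = 5 each) with a log2FC of 0.01 (SE 0.07, adjusted p = 0.982 by edgeR).

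Of the other pairs, Rps4l had 12.3, 20.7, 15.4, 22.8 and 21.3 CPM in Cre- against 22.5, 18.4, 25.8, 21.5 and 32.4 CPM in Cre+ mice, the largest log2FC of any member (0.38, SE 0.19, adjusted p = 0.431 by edgeR). Its groups overlapped, and Cre- replicate 1 and Cre+ replicate 5 were the ends of its range. How much of the sequence of Rps4l occurs in other genes was not measured, as given below. The X-linked Rps4x had 166 ± 13.7 CPM in Cre- against 153 ± 5.18 CPM in Cre+ mice (n = 5 each). The log2FC of Rpl22l1 was 0.17 (SE 0.11), that of Rpl22 was 0.01 (SE 0.06), and Rpl7l1, a paralogue of Rpl7, had 0.03 (SE 0.09).

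Levels of mRNA differed widely between members. Per kb of annotated exon, the level ranged from 1.25 CPM for Rpl39l and 4.66 CPM for Rpl22l1 to 524 CPM for Rplp1, with a median of 52.9 CPM. The range without Rpl39l was 112-fold, and 60 of 82 genes had 10 to 100 CPM per kb. High levels were also those of Rpl36 (356 CPM per kb), Rps15 (295) and Rpl8 (209). Above Rpl39l and Rpl22l1 the lowest were Rps10 (6.01 CPM per kb), Rpl24 (10.6) and Rps15a (10.7). The ranges of Rpl24 (9.48 to 12.4 CPM per kb) and Rps15a (9.71 to 11.7) overlapped, as did those of Rps15 (252.0 to 352) and Rpl36 (300.4 to 409), and Rplp1 (449 to 626) lay above both.

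These levels rest on reads that could be placed at a single site, and on the annotated length. Exons of all transcripts sum to 6270 bases for Rps15a and 2311 for Rps10, but 499 for Rplp1 and 383 for Rpl36, and for the same counts a longer annotation gives a lower value per kb. In the older GENCODE release M21, a median of 51% of the 51-base stretches of a member's main coding transcript also occurred in another gene's transcript, and 41 of 81 members had at least 50%. Rps27 had the most, 98.6%, and Rpl39l was among those with none. Rps4l had no coding transcript in that release.

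Copies with 90% identity or more, over 80% or more of the coding sequence, were found for 77 of the 81, with a median of 9 and up to 77 for Rpl21. Of the 1009 copies, 973 (96.4%) are annotated as pseudogenes. Reads within such stretches could align to several places and were then not counted. The percent of shared stretches had a Spearman correlation across members of -0.07 with the level per kb and of 0.06 with the log2 fold change. In 12 genes with under 25% shared the median log2FC was 0.00 and 6 were above 0, and in 20 genes with at least 75% shared it was 0.06 and 15 were above 0.

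**Figure D5:**
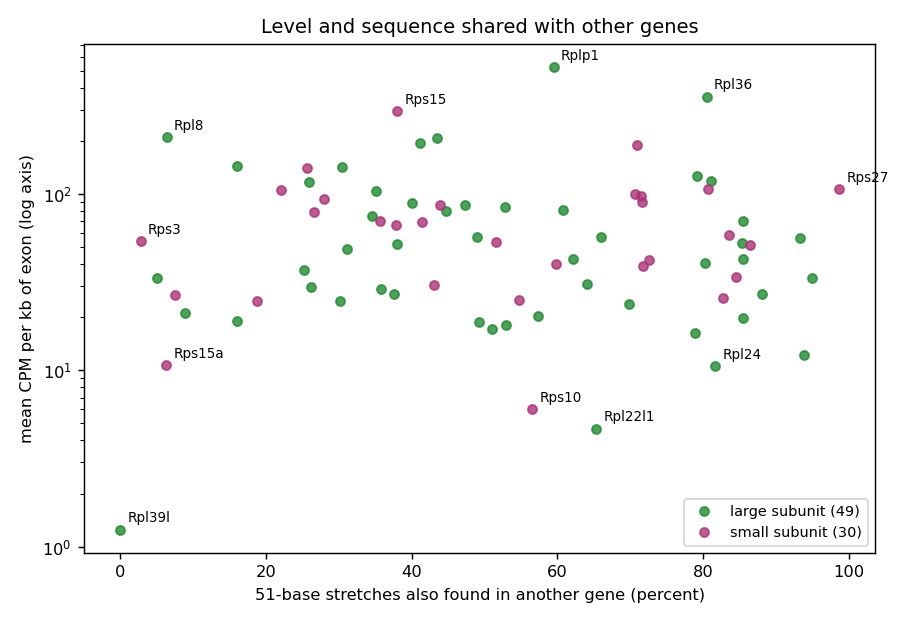
Mean CPM per kb of exon (y axis, log scale) of 79 ribosomal protein genes against the percent of 51-base stretches of their transcript that also occur in another gene (x axis). Points are genes, coloured by subunit. Levels from 10 to 100 CPM per kb occur over the whole x axis, from Rps3 at 2.80% to genes above 90%, and Rplp1 is the highest and Rpl39l the lowest.

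Overlapping genes add to this. Exon bases shared with another gene on either strand were present in 38 of 82 members, above 10% in 15 and above 50% in 2, Rpl35 (66.2%, mostly Wdr38) and Rpl23a (62.3%, mostly Tlcd1). Strand was not used in counting, so reads of a gene and its antisense partner cannot be told apart. Among the leading genes, Rpl30 shared 24.8% of its exon bases, mostly with D730044K07Rik on the opposite strand. Rpl24 and Rps10, both among the lowest levels per kb, had overlaps on the same strand. Rpl24 shared 47.0%, with Gm28037, and Rps10 shared 28.7%, mostly with RPS10-NUDT3. Rpl27, Rpl11, Rps21, Rps23 and Rpl7 shared none. The 300 rows with a -ps symbol, pseudogenes of these genes, had a median sum of 31.8 CPM per library, and 6 of them had a mean of at least 1 CPM.

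Members whose start region held a run of 8 or more pyrimidines had a median log2FC of 0.09 (51 genes), and those without had 0.01 (10 genes). With and without CCGGAAG the medians were 0.08 (26 genes) and 0.07 (35 genes). These are descriptions over few genes, whose values are not independent.

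Outside the symbol rule lie a few further ribosomal proteins. Fau, a fusion of a ubiquitin-like protein with a small subunit protein, had 79.2 ± 5.29 CPM in Cre- against 92.2 ± 8.801 CPM in Cre+ mice (n = 5 each), a log2FC of 0.22 (SE 0.08, adjusted p = 0.269 by edgeR). Of the 5 such genes tested edgeR called 0, where it called 0.164% of all genes. Fau was the one with an unadjusted p under 0.05, where 6.4% of all genes were higher at that p. The log2FC was -0.02 (SE 0.07) for Rack1.

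In the other lists of the translation machinery edgeR called 0 genes and limma voom 0, and DESeq2 called 1, Eif6. Over all genes they called 0.164%, 0.837% and 2.28%, in that order. Of 25 other mRNAs known to start with a TOP motif, among them the elongation factors Eef1a1 and Eef2, 11 had a log2 fold change above 0, with a median of -0.01, and 1, Fau, was higher at an unadjusted p under 0.05. Of 37 initiation factors 16 were above 0, with a median of -0.01. Eif4a2, an RNA helicase of the cap-binding complex, had -0.18 (SE 0.08, adjusted p = 0.364 by edgeR) and Eif2b4, a subunit of the exchange factor of eIF2, had 0.20 (SE 0.09, adjusted p = 0.379 by edgeR). They were the 2 of this list with an unadjusted p under 0.05. Of 10 elongation and termination factors 5 were above 0, and 0 had an unadjusted p under 0.05. Over all genes tested 50.3% were above 0, and 6.4% were higher and 5.95% lower at that p by edgeR.

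Ribosome assembly factors had a median log2FC of 0.03 with 38 of 61 above 0, and an unadjusted p under 0.05 was reached by 4 that were higher and 0 that were lower. Of all genes tested 50.3% were above 0 and 6.4% were higher at that p, about the share of these 4 genes among the 61. Eif6, which keeps the new large subunit from joining the small one, had 37.2 ± 1.99 CPM in Cre- against 45.4 ± 4.24 CPM in Cre+ mice (n = 5 each). Its log2FC was 0.29 (SE 0.07, adjusted p = 0.142 by edgeR, 0.0474 by DESeq2), and the groups did not overlap. Nmd3, the export adaptor of the large subunit, had 0.22 (SE 0.09, adjusted p = 0.359 by edgeR), and Rrp1 had 0.16 (SE 0.07, adjusted p = 0.368 by edgeR).

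Of 18 tested genes of RNA polymerase I and its factors, 11 were above 0. An unadjusted p under 0.05 was reached by 1 that was higher and 2 that were lower. Taf1d, a subunit of its promoter selectivity factor, had -0.51 (SE 0.18, adjusted p = 0.280 by edgeR), and Polr2l, shared by the RNA polymerases, had 0.25 (SE 0.11, adjusted p = 0.370 by edgeR). Among 8 tested chaperones of single ribosomal proteins 5 were above 0 and 0 had an unadjusted p under 0.05. Of 18 genes of mTORC1 and regulators of ribosomal protein mRNA, 11 were above 0 and 3 were higher at an unadjusted p under 0.05: Eif4ebp1, the repressor of the cap-binding protein (0.25, SE 0.08), Akt1s1, an inhibitor of mTORC1 (0.22, SE 0.08), and the mTORC1 subunit Mlst8 (0.23, SE 0.10), with adjusted p-values of 0.242 to 0.371 from edgeR. The shares over all genes tested were again 50.3% above 0, 6.4% higher and 5.95% lower at that p.

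Markers of other cells were measured in the same libraries. At an unadjusted p under 0.05 by edgeR, 5 of 7 tested B cell markers were higher in Cre+ mice. Their sums were 1.25 to 2.27 CPM in Cre- against 2.07 to 4.14 CPM in Cre+ mice. At that p, 8 of 13 mtDNA-encoded protein genes were lower. Of these 8, mt-Atp6 had a mean of 2.47 CPM in Cre- mice, and the mtDNA genes not among the 8 had 29.1 CPM or less there. Of 6 proliferating cell markers 3 were lower, with a median log2FC of -0.60. They summed to 10.1 CPM in Cre- replicate 4 and 4.47 to 5.19 CPM in the other Cre- libraries, against 3.46 to 5.96 CPM in Cre+ libraries. Of 8 fibroblast and preadipocyte markers 2 were higher, with a median of 0.16. Without Cre- replicate 2 and Cre+ replicate 4 that median was -0.0007. Over all genes tested 6.4% were higher and 5.95% lower at that p. Immediate early genes summed to 846 CPM in Cre- replicate 2 and 617 CPM in Cre+ replicate 4 and to 175 to 445 CPM in the others. Of 12 tested skeletal muscle markers, 1 had a log2 fold change above 0. In bulk tissue, fewer cells of a type and less RNA per cell cannot be told apart, and the part of these differences in the values of ribosomal protein genes was not tested.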

How the data were processed

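The submitters' processing notes name Trimmomatic for trimming, STAR for alignment to GRCm39 and featureCounts 2.0.1 for counting. Trimmomatic and STAR have versions not given in the sources used here. Per the file headers, the deposited values are raw counts of GENCODE M28 genes, without strand, each mate by itself, and without reads of several alignments. RNA was poly(A) selected and read from both ends. Symbols were matched for 52081 of 55414 genes (94.0%).

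The 10 libraries were grouped by the genotype in the labels. The members, lists, rule for named genes and tests were chosen with earlier results of these data known. The rule takes RetSat, stalk proteins, Rps6, Rpsa, the 10 members with the smallest p, the 5 highest and lowest levels per kb, paralogue pairs, members whose groups do not overlap, and up to 3 genes of each other list, of which 31 members are described. Other genes were named after their values were seen. Counts were tested by the quasi-likelihood F test of edgeR 4.0.16 (R 4.3.3) after TMM scaling, filterByExpr (minimum count 10, total 15) and robust dispersion estimation. P-values were adjusted by Benjamini-Hochberg over all 17690 genes tested, and a gene was called at an adjusted p under 0.05. SE is the size of the log2FC over the square root of F. A prior count of 2 was added for log2 CPM. Replicates are samples that the labels number separately, taken as single mice. The labels do not say so, and p-values measure the spread between these samples.

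DESeq2 1.42.0, limma 3.58.1 (voom with sample quality weights), other scalings and filters, the replicate number as a block, and left-out libraries were alternatives. The tests were checked on data with known answers. Sequence copies were found with BLAST 2.17.0 in GENCODE M21 transcripts, and start regions are from RefSeq. Coordinates of genes are those of the files. Protein sequences were not used, and values of some single members are not reported here.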

Additional observations from a re-analysis of the deposited data

Results flagged for a closer look

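In 32 genes, RetSat and 31 members taken by the rule, the highest and the lowest mouse of each genotype were compared with the other mice of the group. Of 64 groups, 5 held a mouse far from the others by Dixon's criterion, where chance gives about 1 in 20. Rps27l, with 95.8 CPM in Cre- replicate 2 against 80.6 to 84.2 CPM in the other Cre- mice, and Rpl39l, with 2.48 CPM against 0.485 to 1.05 CPM, stood apart in the library that also had the most muscle transcripts. Rps6 had 57.8 CPM in Cre- replicate 1 (50.3 to 52.2 CPM in the others), the Cre- library with the highest share of ribosomal protein counts. Rpl27 had 21.8 CPM in Cre- replicate 5 (24.4 to 25.1 CPM in the others), the library with the lowest share, and its log2 fold change without that library was still above 0, since leaving out any 1 library gave 0.29 to 0.41. Rpl24 had 9.77 CPM in Cre+ replicate 4, against 10.4 to 10.5 CPM in the other Cre+ mice.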

How the results depend on the processing

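No ribosomal protein gene was called by edgeR under any of its alternatives, and DESeq2 called 1, Rpl27 (adjusted p = 0.0394; 0.0775 by limma voom and 0.337 without Cre+ replicate 5 by edgeR). The number of genes called over all genes was 29 and rose to 393 with DESeq2, 148 with limma voom, 92 without a filter on low counts and 289 without Cre- replicate 2 and Cre+ replicate 4. Leaving out each library gave 9 to 331, with 331 without Cre+ replicate 4. The median log2 fold change of the members turned to -0.049 and the difference in their share of counts fell to 0.00653 percentage points without the 3 Cre+ libraries with an added letter. Leaving out 1 library gave medians of 0.03 to 0.10 and differences of 0.0574 to 0.108 percentage points. The cause was not tested.

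Some log2 fold changes of single members changed sign, among them those of Rpl13 (0.21 with all libraries) and Rps18 (0.18), which are 2 of the 10 members with the smallest p. With limma voom the value was 0.30 for Rpl39l. Scaled to total counts they were 0.033 for Rpl10, 0.029 for Rplp0, 0.033 for Rps15a and 0.0028 for Rpsa. Without the 3 libraries with the letter they were 0.0091 for Rpl10, -0.039 for Rpl13, -0.021 for Rpl22, -0.13 for Rpl36, -0.039 for Rpl7l1, -0.039 for Rpl8, -0.12 for Rplp1, -0.0059 for Rplp2, -0.0088 for Rps10, -0.095 for Rps15, 0.019 for Rps15a, -0.020 for Rps18 and -0.017 for Rps6. Without Cre- replicate 2 and Cre+ replicate 4 they were 0.63 for Rpl39l and -0.0057 for Rpl7l1. Leaving out 1 library gave -0.30 to 0.47 for Rpl39l, -0.0051 to 0.090 for Rpl7l1, -0.015 to 0.054 for Rps27l (0.083 without Cre- replicate 2 and Cre+ replicate 4) and -0.024 to 0.046 for Rpl22.

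The replicate numbers did not pair the mice: correlations of same-numbered mice were -0.20 to 0.22. With the number as a replicate block, edgeR called 23 genes and 0 members, and the log2 fold change of Rpl39l was 0.058. In all, 617 values of single genes and 64 summary values kept their direction and their side of the threshold or, without a test, stayed within the spread between mice. Against these, 33 values of single genes changed sign, 1 passed the threshold and 14 summary values moved. Rpl39l, the member with the lowest counts, had the largest SE of the log2 fold change (0.44).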
